A study of Mus musculus and Homo sapiens with 107 samples.

Results

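The keratin genes described here are 10 rows of the deposited count tables, taken by their Ensembl identifiers. All 10 were found among the 24353 rows for A549 and among the 24019 rows for H1299. They are the type II genes KRT7 (ENSG00000135480), KRT8 (ENSG00000170421), KRT80 (ENSG00000167767), KRT81 (ENSG00000205426) and KRT86 (ENSG00000170442), and the type I genes KRT10 (ENSG00000186395), KRT15 (ENSG00000171346), KRT17 (ENSG00000128422), KRT18 (ENSG00000111057) and KRT19 (ENSG00000171345). KRT80 was chosen by its value in A549, where its fall was among the 10 largest under the inhibitor, so its A549 response is given as a description with no test. The rule uses no value of the other keratins.

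A549 and H1299 are established lines of human non-small-cell lung cancer with genotype given as wild type in the labels. Both are widely described as lacking functional BRG1 (SMARCA4), which leaves BRM (SMARCA2) as their SWI/SNF ATPase. Each line was given BRM014, an allosteric inhibitor of both ATPases, at 5 µM for 12 h, or the solvent DMSO for 12 h, with 3 RNA-seq libraries for each line and treatment. DMSO is given as 0.05% in the titles and 0.5% in the treatment field. A549 grew in F12-K and H1299 in RPMI, both with serum, and their libraries had 9 and 8 cycles of PCR, so an effect of the line cannot be told apart from one of medium or amplification. Totals were 40684360 to 50177678 counts in A549 and 28412113 to 41780029 in H1299. Among the A549 BRM014 libraries, 2 share a header and are called a and b here, since they carry no replicate number of their own. The spike-in that went into each sample in proportion to its cells is not used here. A gene can therefore be compared only with the rest of its own library. In these bulk samples, less keratin RNA per cell cannot be told apart from fewer cells that express keratin.

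Keratins are the intermediate filament proteins of epithelial cells. A filament is built from pairs of a type I (acidic) and a type II (neutral to basic) chain, and a chain without a partner is usually unstable. KRT8 and KRT18 are the pair of simple epithelia, joined by KRT7 and KRT19 in ducts and airways. KRT15 and KRT17 are known from basal cells, KRT10 from the upper layers of the epidermis, and KRT81 and KRT86 from hair. KRT80 is a type II keratin of many epithelia that is linked to differentiation and to cell junctions.

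The keratins took 1.56% ± 0.0651 of all counts in A549 with DMSO and 1.16% ± 0.0274 with BRM014 (SD, n = 3). In H1299 they took 0.0864% to 0.0886% with DMSO and 0.0519% to 0.0547% with BRM014. The treated libraries lay below the DMSO libraries in both lines. KRT8, KRT18, KRT7 and KRT19 were checked as markers of epithelial cells. KRT8, KRT18 and KRT7 were detected in all 12 libraries, though KRT7 had only 16 to 59 counts in those of H1299. KRT19 had 0 counts in H1299 DMSO replicate 3 and in H1299 BRM014 replicates 1 and 3. In A549 with DMSO, 28.2% ± 0.242 of the keratin counts came from KRT8, 25.9% ± 0.298 from KRT18, 23.7% ± 0.225 from KRT7 and 20.2% ± 0.176 from KRT81 (SD, n = 3). In H1299 with DMSO, KRT18 gave 73.9% ± 0.399 and KRT8 gave 21.4% ± 0.301. These are shares of reads, not of molecules, since counts were not divided by transcript length.

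**Figure D1:**
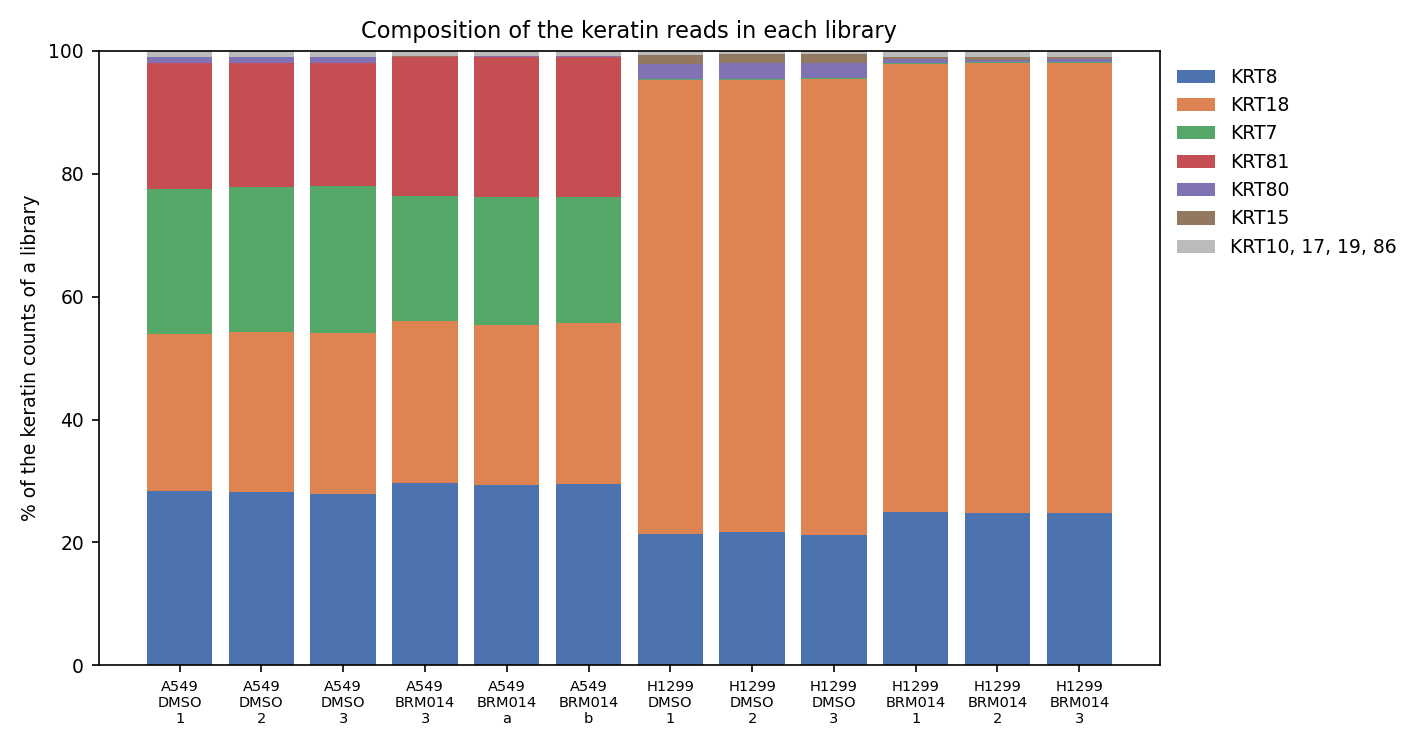
Share of the keratin counts of each library (y axis, %) that came from each gene, for the 12 libraries (x axis: line, treatment, replicate). KRT8, KRT18, KRT7 and KRT81 fill nearly all of each A549 bar, and KRT18 and KRT8 nearly all of each H1299 bar; KRT80 took 0.951% in A549 and 2.54% in H1299 with DMSO, and 0.156% and 0.482% with BRM014.

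In A549, 8 keratins were lower with BRM014 at an edgeR adjusted p below 0.05, against 19.4% of all genes tested, and 1 was higher, against 17.7%. The first number includes KRT80, which the rule chose on this contrast. In H1299, 6 keratins had enough counts to be tested: 5 fell, against 12.7% of all genes, and 0 rose, against 9.29%. The other, KRT10, did not pass, and its log2 fold change ran from -0.15 to 0.06 with 1 library left out. The median log2 fold change was -0.43 over the 10 keratins tested in A549 and -0.85 over the 6 tested in H1299. Over all genes tested it was 0.02 and 0.00. The keratin medians cover different genes, with KRT80 in both, so they do not compare the lines. These counts are a description: the keratins were chosen with results known, and those tested in H1299 are the ones expressed there.

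**Figure D2:**
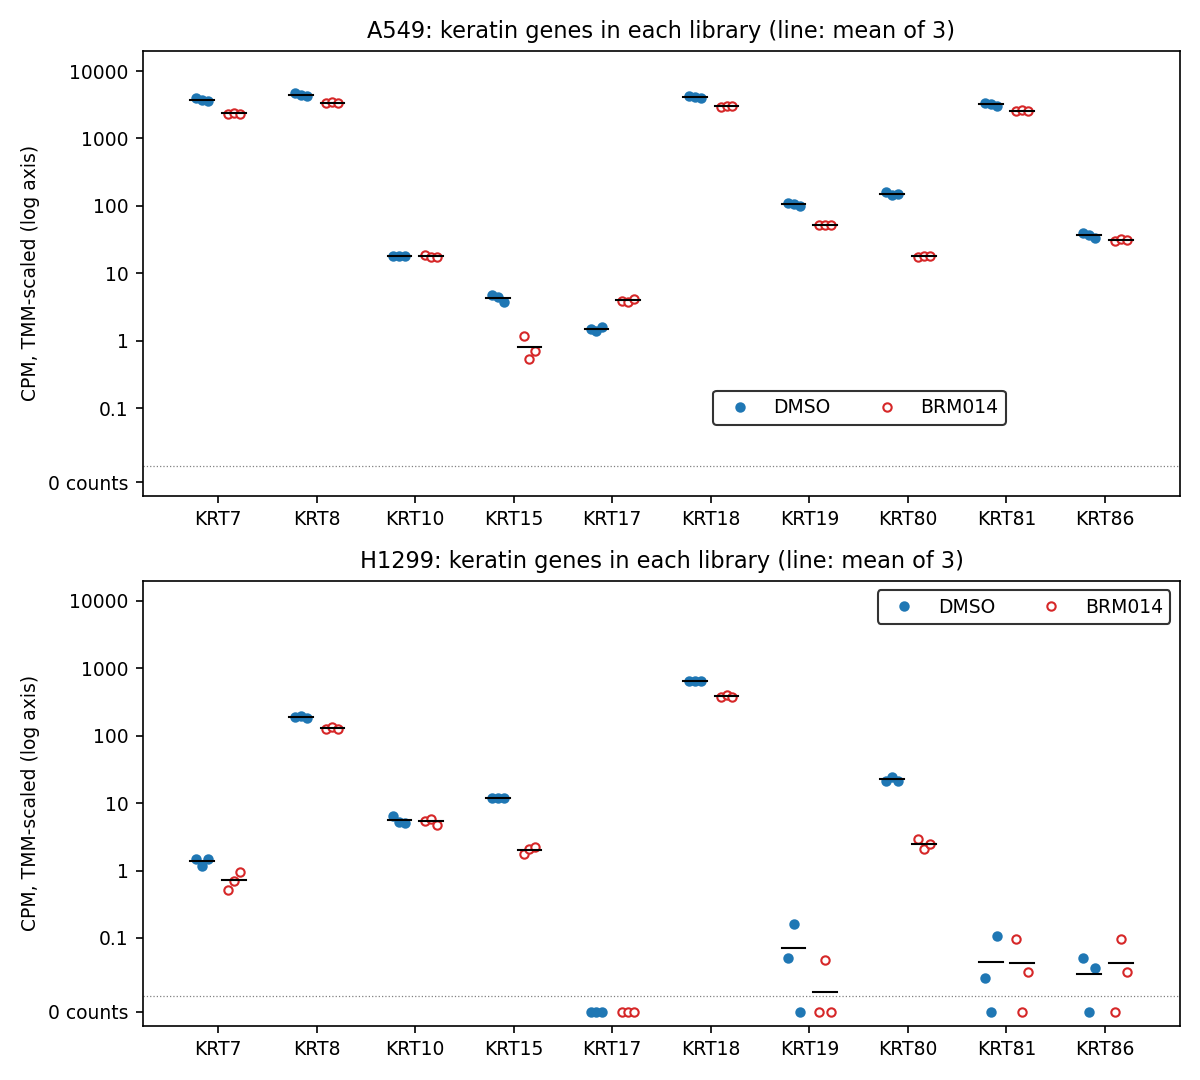
Level of each keratin (y axis, CPM with TMM scaling, log axis) in each of the 3 DMSO libraries (filled) and 3 BRM014 libraries (open) of A549 and H1299, with the mean as a line and libraries without a count drawn at the foot. KRT80 and KRT15 fall furthest in both lines, KRT17 is higher with BRM014 in A549, and KRT17, KRT19, KRT81 and KRT86 lie near or at 0 in H1299.

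KRT80 had 161, 144 and 148 CPM (counts scaled to a common library size, with TMM scaling within the line) in the A549 DMSO libraries and 17.2, 18.2 and 18.1 CPM with BRM014. The treated libraries kept 11.8% of the mean DMSO level, or -3.08 on the log2 scale (standard error 0.06). By the rule of the largest falls (adjusted p below 0.05, at least 5 CPM on average, no overlap between the groups) it ranked 8 of 2151; the falls ranked 10 and 11 were -2.98 and -2.94. In H1299, which the rule did not use, KRT80 had 21.6, 24.2 and 21.6 CPM with DMSO and 2.92, 2.12 and 2.51 CPM with BRM014. No treated library came near a DMSO library, and 11.2% of the level was left. KRT80 fell there, at -3.17 on the log2 scale (standard error 0.10, edgeR adjusted p = 1.92e-23), and by the same rule its fall ranked 2 of 1564. The difference of the responses, H1299 minus A549, was -0.07 on the log2 scale (95% interval -0.31 to 0.17), given without a test because it shares the A549 contrast.

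KRT15, a type I keratin of basal cells, also fell in both lines. It had 4.79, 4.40 and 3.70 CPM in A549 with DMSO and 1.18, 0.530 and 0.699 CPM with BRM014, which rest on 176 to 217 and 23 to 51 counts. In H1299 it had 12.1, 12.0 and 12.0 CPM with DMSO and 1.77, 2.10 and 2.23 CPM with BRM014. The groups did not overlap in either line. KRT15 fell in both lines: its log2 fold change was -2.41 in A549 (standard error 0.21, edgeR adjusted p = 3.23e-06) and was at -2.56 in H1299 (standard error 0.11, edgeR adjusted p = 2.06e-19), where its fall ranked 4 of 1564. In A549 KRT15 was not ranked, since it had less than 5 CPM in every library. Its responses differed between the lines by -0.12 (95% interval -0.64 to 0.40, edgeR adjusted p = 0.798).

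**Figure D3:**
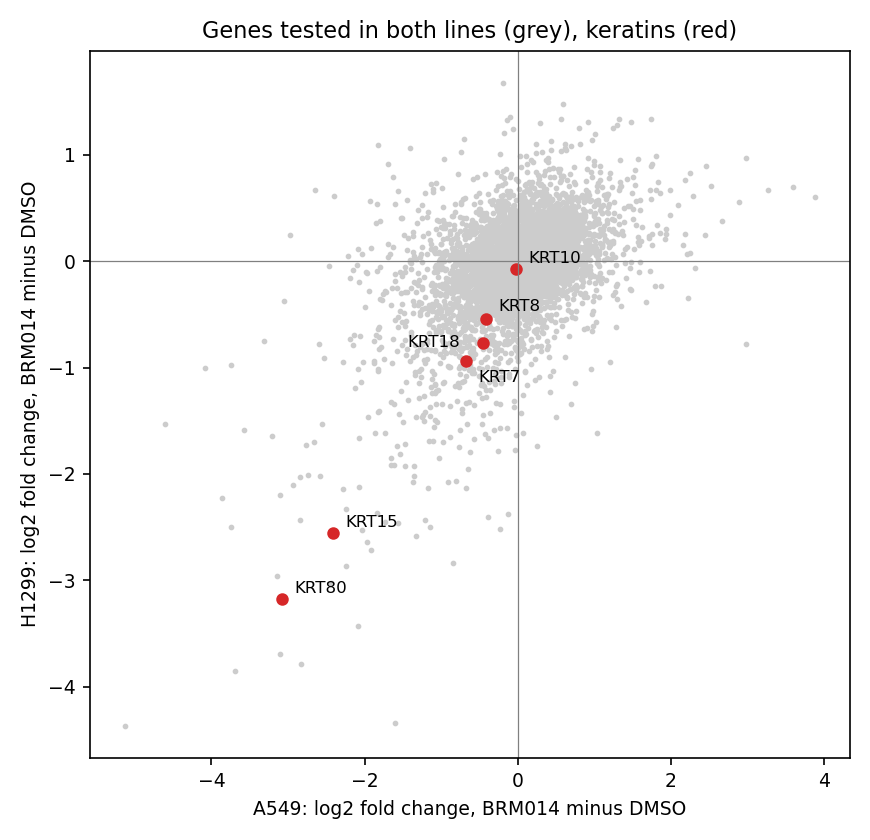
Log2 fold change with BRM014 in A549 (x axis) and H1299 (y axis) for the 13675 genes tested in both lines (grey) and the 6 keratins among them (red). KRT80 and KRT15 lie at the lower left, at -3.08 and -2.41 in A549 and -3.17 and -2.56 in H1299, while KRT10 lies near 0 in both.

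KRT8 and KRT18, the filament pair of simple epithelia, also fell in both lines, by less than 1 on the log2 scale. In A549, KRT8 had 4725, 4466 and 4246 CPM with DMSO and 3337, 3420 and 3357 CPM with BRM014, and KRT18 had 4251, 4124 and 3966 CPM with DMSO and 2975, 3027 and 2984 CPM with BRM014. Every treated library lay below every DMSO library for both genes. The log2 fold changes were -0.41 for KRT8 (standard error 0.03, edgeR adjusted p = 1.95e-06) and -0.46 for KRT18 (standard error 0.03, edgeR adjusted p = 1.20e-07).

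In H1299, KRT8 had 190, 194 and 186 CPM with DMSO and 128, 135 and 127 CPM with BRM014. KRT18 had 657, 656 and 651 CPM with DMSO and 375, 399 and 375 CPM with BRM014. The groups again did not overlap. KRT8 fell by 0.55 on the log2 scale (standard error 0.03, edgeR adjusted p = 1.66e-15) and KRT18 by 0.77 (standard error 0.03, edgeR adjusted p = 1.84e-21).

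The difference in response between the lines was read for 5 keratins. KRT80 was left without a test, and KRT17, KRT19, KRT81 and KRT86, which were also in the fit and did not pass, had too few H1299 counts for a response there. Of the 5, 1 passed, KRT18, against 9.25% of all genes that were more negative in H1299 and 10.2% that were more positive. Its response was more negative in H1299 by 0.29 on the log2 scale (-0.29, standard error 0.04, edgeR adjusted p = 3.10e-05). The differences for KRT7 (-0.24, 95% interval -0.62 to 0.14, edgeR adjusted p = 0.449) and KRT10 (-0.03, edgeR adjusted p = 0.916) did not pass. For KRT8 the difference was -0.11 (standard error 0.05, edgeR adjusted p = 0.119). It passed the threshold when A549 DMSO replicate 1 (adjusted p = 0.0328) or H1299 BRM014 replicate 2 (adjusted p = 0.0310) was left out, and with library totals as the scaling (adjusted p = 0.0224).

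The ratio of KRT8 to KRT18 counts needs no scaling between libraries. In H1299 it was 0.290, 0.296 and 0.285 with DMSO and 0.341, 0.338 and 0.339 with BRM014. In A549 it was 1.11, 1.08 and 1.07 with DMSO and 1.12, 1.13 and 1.12 with BRM014. It was therefore higher in each treated library than in each DMSO library of both lines, by a mean log2 ratio of -1.56 against -1.78 in H1299 and 0.17 against 0.12 in A549. Processed copies of KRT8 and KRT18 elsewhere in the genome can share their reads, and how the authors' counting treated such reads is not given in the sources used here.

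**Figure D4:**
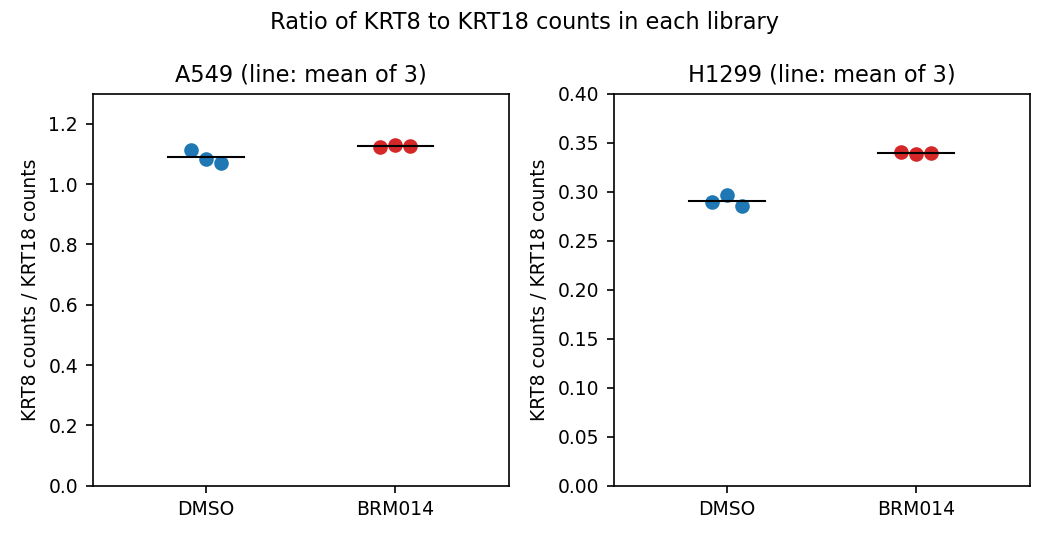
Ratio of KRT8 to KRT18 counts (y axis, from 0, with its own range in each panel) in each library of A549 and H1299 by treatment, with the mean of 3 libraries as a line. In both lines the BRM014 libraries lie above the DMSO libraries, at 0.339 against 0.290 on average in H1299 and 1.13 against 1.09 in A549.

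KRT7 and KRT19, the keratins of ducts and airways, also fell in A549. KRT7 had 3927, 3719 and 3639 CPM with DMSO and 2295, 2422 and 2336 CPM with BRM014, a log2 fold change of -0.68 (standard error 0.03, edgeR adjusted p = 1.64e-08). KRT19 had 112, 108 and 100.5 CPM with DMSO and 51.6, 51.7 and 51.8 CPM with BRM014, a log2 fold change of -1.05 (standard error 0.05, edgeR adjusted p = 1.31e-08). The treated libraries of both genes lay below all DMSO libraries. The count ratio of KRT7 to KRT8 went from 0.840 ± 0.0146 to 0.697 ± 0.0103, and that of KRT7 to KRT19 from 35.3 ± 0.913 to 45.5 ± 1.23 (SD, n = 3), with no overlap between DMSO and BRM014 libraries for either ratio.

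H1299 had very little of either. KRT7 had 59, 36 and 42 counts with DMSO and 16, 29 and 31 with BRM014, or 1.38 ± 0.197 and 0.722 ± 0.225 CPM (SD, n = 3). It passed the threshold (log2 fold change -0.94, standard error 0.27, edgeR adjusted p = 0.00968), but not without DMSO replicate 1 (adjusted p = 0.0601) or BRM014 replicate 1 (adjusted p = 0.0553). KRT19 was too rare to test, at 7 counts in the DMSO group and 2 in the BRM014 group.

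**Figure D5:**
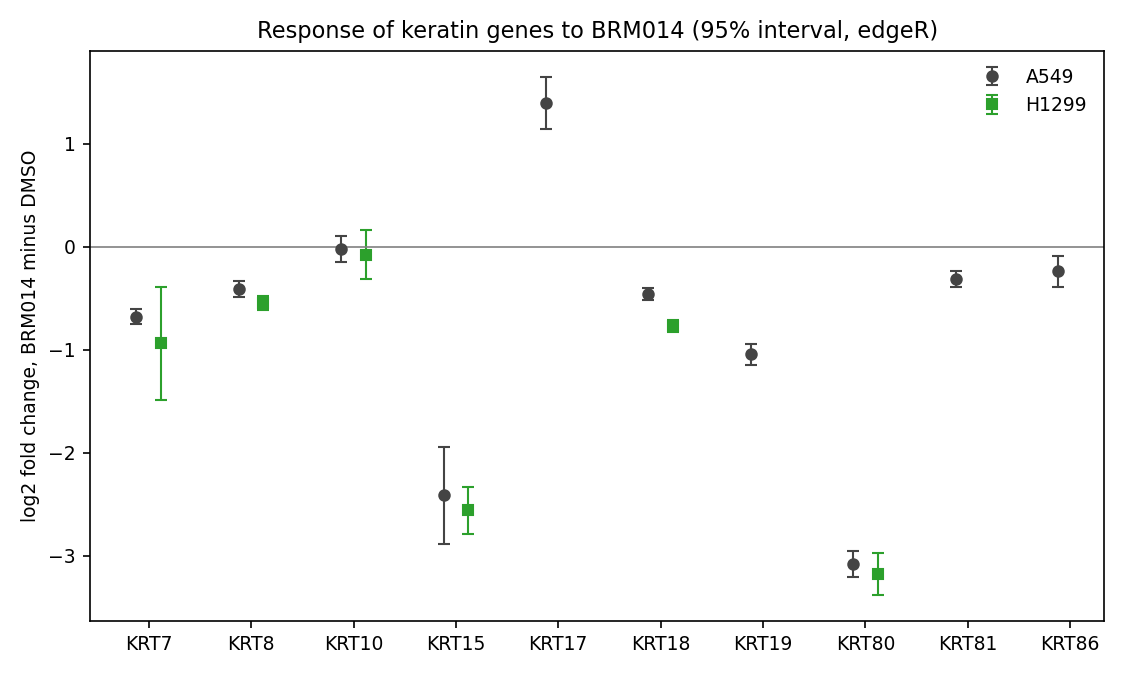
Log2 fold change with BRM014 (y axis) of each keratin with its 95% interval from edgeR, in A549 (circles, 10 genes) and H1299 (squares, the 6 genes tested). Falls reach -3.08 and -3.17 for KRT80, KRT10 spans 0 in both lines, and KRT17 in A549 is the 1 value above 0.

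KRT17, which partners type II keratins in basal and wounded epithelium, went the other way. In A549 it had 67, 56 and 80 counts with DMSO and 165, 190 and 169 counts in the BRM014 libraries a, b and 3. With BRM014 these are 3.96 ± 0.176 CPM (SD, n = 3), and the groups did not overlap. KRT17 rose 2.63-fold in the fit, a log2 fold change of 1.40 (standard error 0.12, edgeR adjusted p = 1.92e-06). It stayed at a low level: with BRM014 it gave 0.0347% of the keratin counts, against 0.00946% with DMSO. KRT17 is close in sequence to other type I keratins, so reads that fit several of them make its count uncertain. In H1299 it had 0 counts in all 6 libraries, which allows up to 0.0300 CPM over the DMSO group and 0.0288 CPM over the BRM014 group (3 counts of the total, counting error only).

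The hair keratins KRT81 and KRT86 fell in A549 and had almost no counts in H1299. KRT81 had 3394, 3201 and 3049 CPM with DMSO and 2536, 2657 and 2578 CPM with BRM014, a log2 fold change of -0.31 (standard error 0.04, edgeR adjusted p = 3.19e-05). KRT86 had 40.1, 36.4 and 33.4 CPM with DMSO and 30.6, 31.7 and 30.7 CPM with BRM014, a log2 fold change of -0.24 (standard error 0.07, edgeR adjusted p = 0.0147). The groups did not overlap for either gene, but the call for KRT86 was lost without BRM014 library b (adjusted p = 0.0610). The KRT86 count was 1.09% to 1.18% of the KRT81 count with DMSO and 1.19% to 1.21% with BRM014. These genes are close in sequence, and whether reads of KRT81 were counted to KRT86 was not tested. In H1299, KRT81 had 4 counts in each group, and KRT86 had 3 with DMSO and 5 with BRM014.

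KRT10, the type I keratin of the upper epidermis, did not pass the test in either line. It had 18.2, 17.9 and 18.3 CPM in A549 with DMSO and 18.4, 17.7 and 17.4 CPM with BRM014, and 6.55, 5.26 and 5.03 against 5.43, 5.82 and 4.80 CPM in H1299. The groups overlapped in both lines. The log2 fold changes were -0.03 in A549 (95% interval -0.15 to 0.10, edgeR adjusted p = 0.763) and -0.08 in H1299 (95% interval -0.32 to 0.16, edgeR adjusted p = 0.718).

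Between the lines in DMSO, 5 keratins passed the filter on low counts in each line and were not chosen on these libraries. Of these, 4 were lower in H1299, against 42.8% of all genes tested, and KRT15 was higher, against 42.9%. KRT7, 1 of the 4, had only 137 H1299 DMSO counts. KRT17, KRT19, KRT81 and KRT86 passed the filter on low counts only through A549, and the A549 DMSO libraries also chose KRT80, so these 5 are left out of the tally. On a joint TMM scale for the 12 libraries, KRT8 had 4879 ± 233 CPM in A549 and 177 ± 4.27 in H1299, and KRT18 had 4481 ± 132 and 609 ± 5.67 (SD, n = 3). The gap was wider for KRT8, at a log2 difference of -4.78 (standard error 0.04, edgeR adjusted p = 4.36e-31), than for KRT18, at -2.88 (standard error 0.03, edgeR adjusted p = 1.75e-28). KRT10 was also lower in H1299, at -1.90 on the log2 scale (standard error 0.09, edgeR adjusted p = 2.87e-16). For KRT7 the fit gave -11.63 (standard error 0.07, edgeR adjusted p = 2.50e-33), or 3165-fold, on 137 H1299 DMSO counts. KRT15 was the gene that was higher in H1299, by 1.26 (standard error 0.12, edgeR adjusted p = 4.59e-10).

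For the keratins that H1299 hardly expressed, KRT7 among them, the pooled DMSO counts per library total give the gap. These ratios have no TMM scaling, unlike the differences above, and their intervals cover counting error only. KRT7 was 2695 times as high in A549 (95% exact interval 2280 to 3210), KRT19 1494 times (725 to 3716), KRT81 78804 times (30778 to 289225) and KRT86 1196 times (409 to 5803). The last 3 rest on few counts in H1299 replicates 1, 2 and 3: 2, 5 and 0 for KRT19, 1, 0 and 3 for KRT81, and 2, 0 and 1 for KRT86. The KRT19 ratio was 3583 (992 to 29589) without replicate 2, the KRT81 ratio 225600 (40491 to 8910750) without replicate 3, and the KRT86 ratio 2150 (386 to 84933) without replicate 1. Without replicates 1 and 3 in turn, the KRT19 ratio was 1253 and 1069. Without replicates 1 and 2 in turn, that of KRT81 was 62940.5 and 54002. Without replicates 2 and 3 in turn, that of KRT86 was 820 and 1284. The ratios of KRT19, KRT81 and KRT86 are therefore known only roughly, and leaving out these libraries was chosen after seeing the data. KRT17 was at least 49.3-fold higher in A549, against a floor of 3 counts over the H1299 DMSO group.

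KRT80 had 165 ± 8.90 CPM in A549 with DMSO, 19.2 ± 0.644 in A549 with BRM014, 20.9 ± 1.38 in H1299 with DMSO and 2.34 ± 0.360 in H1299 with BRM014 on the joint scale. The middle pair lay within 1.76 CPM of each other on average, and their difference was not tested. The line difference in DMSO was -2.98 on the log2 scale (standard error 0.06); its A549 libraries also chose the gene, so it is given with no test. Over the 12 libraries, the genes with the log2 CPM most like that of KRT80, among 11129 at 5 CPM or more, were ENSG00000161638 (Pearson r = 0.996) and ENSG00000196526 (r = 0.995). Their fold ranges were smaller: the first had 129.9, 80.7, 84.5 and 48.6 CPM in the 4 groups in the same order. Among the other keratins the r with KRT80 ran from 0.346 for KRT15 to 0.821 for KRT18. These 12 points share 4 group means and their libraries, so r is a description only.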

How the data were processed

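RNA-seq counts of the 12 A549 and H1299 libraries were analysed; the other 95 samples of the series were not analysed here. The deposited values are whole-number gene counts, not normalized by the authors, and each line has its own table. The submitters' processing notes name build hg38, featureCounts, DESeq2, STAR 2.7.3a, Bowtie 1.2.2 and cutadapt 1.14. What each tool did, the annotation and the strand setting: not given in the sources used here. Per the labels' protocols, libraries were stranded, made from 500 ng of total RNA depleted of ribosomal RNA. The labels do not say whether replicates were separate cultures, so the p-values reflect only library-to-library spread, possibly technical.

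Genes were kept by filterByExpr (count minimum of 10 in a median library, 15 in total), scaled with TMM factors and compared in R 4.3.3 with edgeR 4.0.16 (two-sided quasi-likelihood test, Benjamini-Hochberg over all genes tested, threshold 0.05). Each line was fitted alone, and the line difference and the interaction came from a joined fit of 22842 shared identifiers. The fit was tested on simulated data. There the interaction recovered small changes less often than the other comparisons and missed the first criterion set for recovery. That criterion was relaxed after this result, with the fit unchanged. An interaction that missed the threshold may therefore be a small difference that was not detected. The share of false calls was above the threshold in the other comparisons. Standard errors were derived from F as |log2 fold change|/sqrt(F). Alternatives were other scalings, DESeq2 1.42.0, limma-voom (limma 3.58.1), other filters, the joined fit, a replicate block and leaving out libraries. All pairs of replicates differed by more than sampling noise (chi-square per degree of freedom 2.20 to 11.1). The members and lists were chosen with earlier results of these data known. The text names the keratins and the genes most like KRT80. The name and sequence tables used here are for another organism and matched 0 identifiers; symbols come with the list of members, and lists of partner genes, genome positions and sequences were not used.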

Additional observations from a re-analysis of the deposited data

Results flagged for a closer look

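The response of KRT18 to BRM014 differed between the lines by the test of the interaction: taking A549 from H1299 left -0.29 on the log2 scale. KRT18 fell by 0.77 on the log2 scale in H1299 and by 0.46 in A549. Over the alternatives the difference ranged from -0.33 to -0.26, and its edgeR, DESeq2 or limma adjusted p did not exceed 0.000302. With 1 library left out in turn, it ranged from -0.33 to -0.26. Groups of 3 libraries were too small for a test that singles out outlying libraries.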

How the results depend on the processing

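In all, 449 values of the keratins were recomputed under the alternatives, and 440 were counted as unchanged. These kept their side of the threshold or, for the untested values of KRT80, kept direction and moved by less than the spread between replicates. A value that passed in neither fit was counted as unchanged even where its sign changed. An example is the A549 response of KRT10, at 0.02 with library totals as scaling against -0.03 with TMM. The A549 response of KRT86 missed the threshold without BRM014 library b (log2 fold change -0.23, adjusted p = 0.0610). The H1299 response of KRT7 missed it without DMSO replicate 1 (-0.87, adjusted p = 0.0601) and without BRM014 replicate 1 (-0.76, adjusted p = 0.0553). The interaction of KRT8 passed it with library totals (-0.15, adjusted p = 0.0224), without A549 DMSO replicate 1 (-0.15, adjusted p = 0.0328) and without H1299 BRM014 replicate 2 (-0.15, adjusted p = 0.0310), and the number of keratins more negative in H1299 was then 2. The untested interaction of KRT80 was 0.051 without H1299 BRM014 replicate 2 and -0.18 without H1299 BRM014 replicate 1. Leaving out both unnumbered A549 libraries was chosen after seeing the data and left 1 A549 BRM014 library. The A549 log2 fold change was then -3.16 for KRT80 and -1.88 for KRT15. The interaction of KRT15 was then -0.68, against -0.12 with all libraries. A filter at 5 CPM did not keep KRT17, so 0 keratins rose in A549. With 1 library left out, 7 to 8 fell (KRT80 included) and 1 rose there. In H1299, 4 to 5 fell and 0 rose, with 1 to 2 responses more negative and 0 more positive. These counts lack shares of all genes. Without KRT8 and KRT18, the type I share of the keratin counts was 1.79% in A549 with DMSO, 1.47% with BRM014, 42.5% in H1299 with DMSO and 69.0% with BRM014, beside 26.7%, 26.9%, 75.9% and 74.5% with them. Library totals as scaling moved the median of all genes by 0.23 on the log2 scale between the lines.

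With the replicate block, H1299 log2 fold changes were -0.94 for KRT7, -0.55 for KRT8, -0.07 for KRT10, -2.56 for KRT15, -0.77 for KRT18 and -3.18 for KRT80, with 5 lower and 0 higher. In the DMSO libraries alone the block gave line differences of -4.79 for KRT8, -2.89 for KRT18, -1.92 for KRT10 and 1.25 for KRT15. The replicate block changed no call. The departures of same-numbered libraries from their group means had correlations of -0.09 to 0.03 in H1299 and -0.08 to 0.05 between the lines. With 3 libraries per group, these values cannot show whether equal numbers mark a shared culture or batch. No block could be made for A549 or the interaction, since only 1 A549 BRM014 library has a number of its own.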
